A study of Mus musculus with 123 samples.

Results

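The 10 genes described here encode the principal junction proteins of the intercalated disc in cardiomyocytes: the gap junction connexins Gja1, Gja5 and Gjc1, the classical cadherin Cdh2, the desmosomal plaque proteins Pkp2, Dsp and Jup, the desmosomal cadherins Dsg2 and Dsc2, and the alpha-catenin Ctnna3. They were taken by name, as a list of disc components, and no threshold on their values entered the list, although earlier results of these data were known when it was made. All 10 were among the 23337 gene symbols of the count table, and all 10 had counts at every time point. The cells were single GFP+ cells sorted from hearts of αMHC-GFP mice, which express GFP from the promoter of Myh6, at embryonic days E9.5 and E12.5 and at postnatal day 1 (P1). No further allele or treatment was given for any of the 3 groups, so all cells shared the transgene and differed by age. Embryonic hearts were digested with collagenase I, and P1 hearts with Liberase, DNase and a cell strainer, so digestion and age cannot be told apart in the comparisons with P1.

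Of 123 deposited cells, 112 in which at least 2000 genes had a count were kept (42 E9.5, 29 E12.5 and 41 P1 cells). The labels named no animal, litter or chip for any cell. A time point is therefore a single sample here, its cells are not replicates of it, and p-values are not given. The prefixes of the cell titles divided the cells into naming sets, which were 14 cells of set C and 28 of set N530 at E9.5, 20 of set C, 8 of set N523 and 1 of set E12-5b at E12.5, and set C alone at P1. Set C is a title prefix only, and the labels do not show that its cells of different ages shared a chip. Comparisons within set C are therefore not known to hold any batch constant. The range of a ratio over pairs of sets with 6 or more cells was used as its spread. Total counts ranged from 69522 to 7711355 per cell. The median cell had 2476022 counts among E9.5 cells, 493238 among E12.5 cells and 149078 among P1 cells. Of 5 cardiomyocyte markers (Myh6, Tnnt2, Actn2, Ttn and Ryr2), 3 or more reached 10 counts per 1000000 (CPM) in 39 of 42, 29 of 29 and 41 of 41 cells. The 3 exceptions were E9.5 cells of set C. In 1 cell at E9.5 and 1 at P1, 3 or more of 6 endothelial markers reached 10 CPM. That P1 cell also passed the cardiomyocyte cut, with Myh6 at 19.4 CPM. Cells of set N523 with Myh6 at 77.9, 266 and 18.3 CPM passed it too. In the same order, these had Nppa at 32004, 7725 and 21985 CPM and Dsp at 0.149, 0.389 and 0.130 CPM. They enter the N523 means. The erythroid genes stayed at or below 139 CPM in sum, and of 4 macrophage markers Ptprc and C1qa were at 0 in all cells, Csf1r was found in 1 E12.5 cell (0.339 CPM) and Cd68 in 1 P1 cell (636 CPM).

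The intercalated disc joins cardiomyocytes end to end. Connexins form the channels that carry the electrical impulse from cell to cell, N-cadherin anchors the actin of adjoining cells through catenins, and desmosomes anchor the desmin filaments through plakoglobin, plakophilin and desmoplakin. In the mammalian heart, connexin 43 is the main connexin of working myocardium, connexin 40 marks the atria and the fast conduction system, and connexin 45 is found early and in nodal tissue. Mutations in desmosomal genes are a known cause of arrhythmogenic cardiomyopathy.

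Gja1, which encodes connexin 43, was higher at each later time point. Its mean over cells was 178 ± 456 CPM (SD over 42 cells) at E9.5, 1224 ± 1925 CPM at E12.5 (29 cells) and 5103 ± 3330 CPM at P1 (41 cells). These SDs describe cells within a time point and are not errors between animals. At E9.5 the lowest and the median cell were at 0, and the highest reached 2234 CPM. At E12.5 the median cell was at 680 CPM and the highest at 8366 CPM, while the lowest cell was again at 0. At P1 the values ran from 4.86 CPM through a median of 4685 CPM to 13129 CPM, and no cell was at 0. Thus the time points overlapped in range, but 22 of 42 cells lacked Gja1 at E9.5, 7 of 29 at E12.5 and 0 of 41 at P1. The level of 1000 CPM was reached by 3 of 42, 12 of 29 and 38 of 41 cells.

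The mean of Gja1 was 6.88-fold higher at E12.5 than at E9.5 (log2 ratio 2.78, 1.76 to 3.15 over 4 pairs of naming sets). It was 4.17-fold higher at P1 than at E12.5 (log2 ratio 2.06, 1.76 to 2.94 over 2 pairs). From E9.5 to P1 the ratio was 28.7-fold (log2 ratio 4.84, 4.71 to 4.92 over 2 pairs). Every pair of sets had the same direction in each of these comparisons. These ranges rested partly on single cells. At E9.5, 1 cell held 63.4% of the set C sum and another 47.2% of the N530 sum, and without them the means of the sets went from 195 to 76.9 CPM and from 169 to 92.5 CPM. Within set C and without the 2 cells with endothelial markers, the log2 ratios to E9.5 were 4.29 (E12.5) and 6.09 (P1). Over the summed counts of all cells, Gja1 took 163 CPM of E9.5 (exact Poisson 95% interval 160.2 to 165), 706 CPM of E12.5 (699 to 713) and 4845 CPM of P1 (4793 to 4898). The reads carried no molecular identifiers and are not independent, so these intervals cover counting error only. The intervals of shares given below cover the draw of cells from 1 sample, and neither kind covers the spread between hearts. The same order was seen at equal depth, with every cell thinned to 100000 counts. Gja1 was then found in 42.9% of the 42 E9.5 cells (exact Clopper-Pearson 95% interval 27.7 to 59.0%), 75.9% of the 29 E12.5 cells (56.5 to 89.7%) and 100% of 38 P1 cells (90.7 to 100%). Unthinned, the shares were 47.6%, 75.9% and 100%. Thinning left out 3 P1 cells that were shallower.

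A few cells stood apart from the rest in Gja1. The P1 cell at 4.86 CPM was the one with endothelial markers, with Emcn at 6165 CPM and Pecam1 at 797 CPM. Cdh2, Pkp2, Dsp, Dsg2, Dsc2 and Ctnna3 had no count in it, and Myh6 was at 19.4 CPM. The other P1 cells had 590 CPM of Gja1 or more. At E9.5, Gja1 was found in all 3 cells that fell short of 3 cardiomyocyte markers, at 69.6, 204 and 1735 CPM. These cells had 0, 1 and 1 of the 5 markers at 10 CPM. The highest of these was the E9.5 cell with endothelial markers. Without the 3 cells, the E9.5 mean was 140 CPM in 39 cells, and P1 exceeded it by a log2 ratio of 5.19.

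The sequence before the start of Gja1 is shown together with that of Gja5, because these were the members counted as higher at P1 than at E9.5. The sequences are from RefSeq on GRCm38.p6, chr10:56377050-56377299 for Gja1 and chr3:97032152-97032401 for Gja5, both on the + strand, and each run holds the 250 bases that precede an annotated start. Capitals mark matches, on either strand, to 6 short motifs: GGGCGG (the GC box), GGTGTGA (a half-site of T-box factors), TGANTCA (the site of AP-1), AGATAA (the site of the zinc-finger GATA factors), TNAAGTG (the site of the homeobox factor NKX2-5) and TATAAA (the box bound by TBP).
Gja1: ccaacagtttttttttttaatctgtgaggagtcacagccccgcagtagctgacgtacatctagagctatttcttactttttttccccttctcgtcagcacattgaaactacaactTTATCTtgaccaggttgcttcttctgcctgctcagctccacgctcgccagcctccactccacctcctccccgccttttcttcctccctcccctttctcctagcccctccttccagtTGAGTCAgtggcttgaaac
Gja5: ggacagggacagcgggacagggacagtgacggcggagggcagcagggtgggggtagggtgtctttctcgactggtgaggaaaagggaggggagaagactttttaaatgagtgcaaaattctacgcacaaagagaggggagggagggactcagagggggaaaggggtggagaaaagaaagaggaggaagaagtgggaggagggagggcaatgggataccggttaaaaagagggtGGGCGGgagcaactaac
The Gja1 window held 1 AP-1 match, close to the start, and 1 GATA match. The Gja5 window held 1 GC box. Among 32851 mouse promoter windows of the same length, 6.75% held an AP-1 match, 9.99% a GATA match and 32.7% a GC box. Neither window held a match to the T-box (3.33% of windows), NKX2-5 (10.1%) or TBP (12.4%) letters, and matches did not overlap each other. A match is a run of letters and not a site that was measured here. The Gja5 window lies inside the annotated gene (96904693 to 97077416, + strand), so the start it precedes is an internal one. No other start of Gja5 was examined. A start was listed for 5 of the 10 members.

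**Figure D1:**
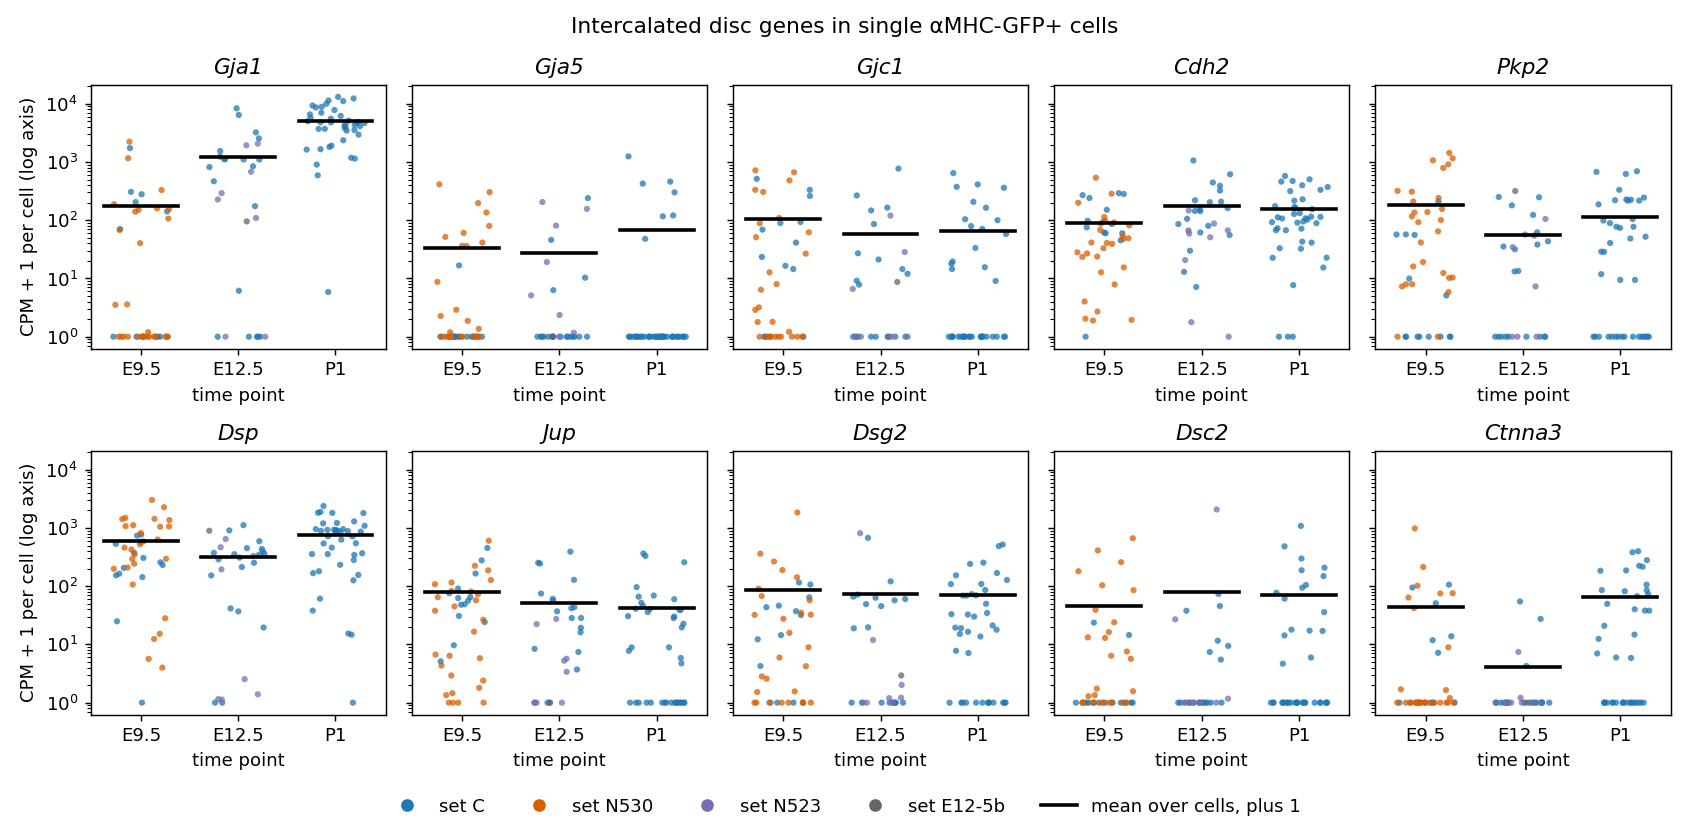
Each point is 1 cell, with CPM + 1 on a log axis against time point (42, 29 and 41 cells), coloured by naming set; the black line is the mean over cells, plus 1. Gja1 goes from a mean of 178 CPM to 5103 CPM, whereas the other genes keep broad and overlapping ranges, and Dsc2 at E12.5 has 1 cell at 2080 CPM.

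Gja5, which encodes connexin 40, was found in a minority of cells at each time point. The cells with Gja5 were 17 of 42 (40.5%) among E9.5 cells, 11 of 29 (37.9%) among E12.5 cells and 7 of 41 (17.1%, exact interval 7.15 to 32.1%) among P1 cells. At 100000 counts per cell the shares were 33.3%, 31.0% and 18.4%, with exact intervals of 19.6 to 49.5%, 15.3 to 50.8% and 7.74 to 34.3%. The lower share at P1 was not present within set C, the only set at P1, where Gja5 was found in 1 of 14, 4 of 20 and 7 of 41 cells (7.14%, 15% and 18.4% at equal depth). It came from set N530, with 16 of 28 cells, and set N523, with 7 of 8. The median of the cells with Gja5 was 35.4, 18.2 and 300.1 CPM in the same order, but 1 count in the median cell is 0.404, 2.03 and 6.71 CPM, so that low levels could be found only in the deeper cells. The mean over all cells was 32.8 ± 84.2 CPM, 26.3 ± 63.3 CPM and 66.3 ± 218 CPM (SD over cells). These means gave 2.02-fold more at P1 than at E9.5 (log2 ratio 1.02, 0.45 to 5.88 over pairs of sets) and 2.52-fold more than at E12.5 (log2 ratio 1.33, 0.19 to 2.15). The highest P1 cell held 46% of the P1 sum, and without it the P1 mean was 36.7 CPM, close to that of E9.5. With summed CPM the log2 ratios were 0.60 and 0.10, and with mean TPM that against E9.5 was 0.45, so that 2-fold was not reached. The naming sets also differed: at E9.5 Gja5 was found in 1 of 14 cells of set C (1.13 CPM) and in 16 of 28 cells of set N530 (48.6 CPM).

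The 7 P1 cells with Gja5 had 47, 116, 120, 300.1, 425, 460 and 1249 CPM. Of these, 6 also had Sln, an atrial regulator of the calcium pump, at 1351 to 6034 CPM. In the 34 P1 cells without Gja5, Sln was found in 5 and did not exceed 74.8 CPM. The further atrial markers lay the same way. Nr2f2, a transcription factor of atrial cells, was found in 6 of 7 against 1 of 34 cells, and that 1 cell was the cell with endothelial markers. Myl4, the atrial essential light chain, was found in 7 of 7 against 13 of 34 cells, and Myl7, the atrial regulatory light chain, had a median of 14002 CPM against 274 CPM. Myl2, the ventricular light chain, had a median of 826 CPM in the cells with Gja5 and of 7324 CPM in the others, but the ranges overlapped. The cell that broke the pattern had 120 CPM of Gja5 and no count of Sln, Nppa or Nr2f2, with Myl2 at 9237 CPM. All 7 cells also had Gja1, at 904 to 9363 CPM, within the range of the other cells, and none of them had Gjc1. These cells were picked by Gja5 in 1 sample, and the values are a description. Of 4 markers of nodal and conduction cells, Hcn4, Tbx3 and Isl1 were at 0 in all P1 cells, and Cacna1g was found in 1 of the 7 cells with Gja5 and 5 of the 34 without.

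**Figure D2:**
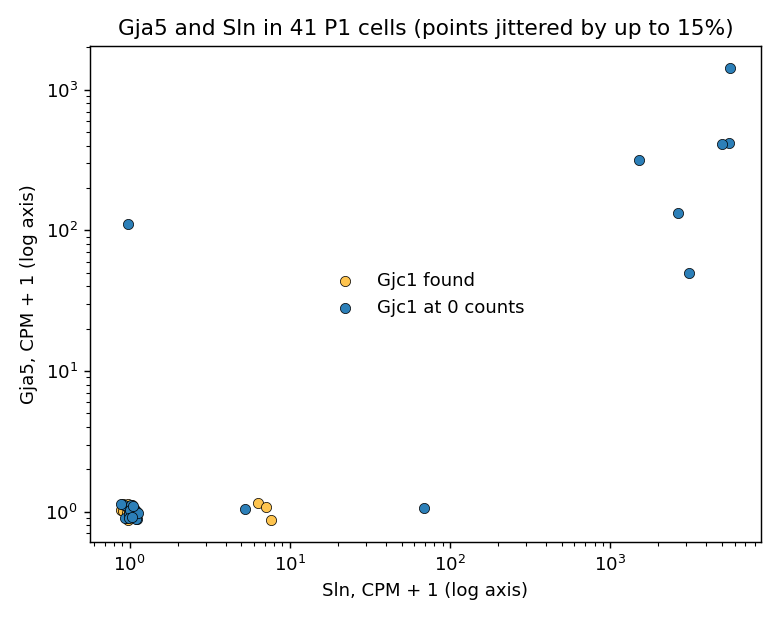
Gja5 against Sln in the 41 P1 cells, both as CPM + 1 on log axes, coloured by whether Gjc1 was found. The upper right holds 6 cells with both genes, the cell at the upper left has Gja5 at 120 CPM without Sln, and the 17 cells with Gjc1 all lie at 0 counts of Gja5.

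At E12.5, Sln was found in 4 of the 11 cells with Gja5 and in 4 of the 18 without. Nppa, the atrial natriuretic peptide of the early chambers, was found in 11 of 11 cells with Gja5 and in 5 of 18 without. These E12.5 counts were 4 of 4 against 4 of 16 in set C, and all 8 cells of set N523 had Nppa. At E9.5, Nppa was found in 17 of 17 against 16 of 25 cells. This followed the naming set: all 28 cells of set N530 had Nppa, 16 with and 12 without Gja5, as against 5 of 14 cells of set C, of which 1 had Gja5. Sln had no count in any of the 42 E9.5 cells, which allows up to 0.0297 CPM of the summed counts. Nppa was likewise the gene whose level followed Gja5 most closely among 2798 genes found in at least 50% of cells. After centring within time point and naming set, Pearson's r of ln(CP10K + 1), where CP10K is counts per 10000, was 0.52 over 112 cells, and it was 0.54, 0.03, 0.77, 0.26 and 0.74 within set C at E9.5, N530, set C at E12.5, N523 and P1. These cells share libraries and differ in depth, so r is given without a test. In set C at E9.5 r rested on the only cell with Gja5 (15.8 CPM). In set C at E12.5, 4 of 20 cells had Gja5 and 1 held 80.0% of its sum. N530, with Gja5 in 16 of 28 cells, had the r of 0.03.

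Gjc1, which encodes connexin 45, was found in 28 of 42, 15 of 29 and 17 of 41 cells in order of age (66.7%, 51.7% and 41.5%). Thinned to 100000 counts, the shares were 50%, 44.8% and 36.8%. Its mean was 103 ± 188 CPM, 57.8 ± 151 CPM and 65.1 ± 140 CPM (SD over cells). The ratio of P1 to E9.5 (log2 ratio -0.66, -0.67 to -0.65 over pairs of sets) did not reach 2-fold. The set C value rested on the E9.5 cell with endothelial markers, which had 514 CPM, and was -0.11 without the cells with those markers. With mean TPM the ratio was -1.07. Thinning to 100000 counts gave -1.13, but it also left out 3 P1 cells, among them the highest in Gjc1 (644 CPM, 24.1% of the P1 sum), and without these 3 cells the ratio was -0.97 unthinned. From E9.5 to E12.5 the log2 ratio was -0.83, with all 4 pairs of sets lower at E12.5 (-2.44 to -0.43). The highest E12.5 cell held 45.9% of that sum, and without it the mean was 32.4 CPM. With summed CPM the log2 ratio was -2.19.

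Levels of different genes were compared only per length, as mean transcripts per 1000000 (TPM). In the sum of the 3 connexins, Gja1 made up 56.4% of the mean TPM of E9.5 cells, 93.3% of that of E12.5 cells and 97.5% of that of P1 cells. Gjc1 went from 32.9% through 4.77% to 1.30%, and Gja5 from 10.7% through 1.92% to 1.21%. Within set C alone, Gja1 took 63.9%, 93.9% and 97.5% and Gjc1 35.8%, 5.11% and 1.30%, whereas Gja5 took 0.325%, 0.998% and 1.21%, so the lower share of Gja5 with age was not present in set C. The E9.5 values of set C rested on the cell with endothelial markers, and in the other 13 cells Gja1 took 48.5% and Gjc1 50.7%. Gja1 exceeded 90% of the connexin TPM of the cell in 7 of 36 cells with any connexin at E9.5, 16 of 25 at E12.5 and 36 of 41 at P1. At E9.5 the cells were mixed: 6 of 42 had none of the 3 connexins, 8 had Gjc1 alone, 4 Gja5 alone, 3 Gja1 alone and 8 all 3. At P1 all 41 cells had Gja1, of which 17 had it alone, 17 with Gjc1 and 7 with Gja5, and 0 of 41 had Gja5 with Gjc1. Gja5 and Gjc1 were together in 12 of 42 cells at E9.5 and 6 of 29 at E12.5, of which 11 and 3 were cells of sets N530 and N523. Within set C, the set of all P1 cells, they were together in 1 of 14, 3 of 20 and 0 of 41 cells. At 100000 counts per cell the numbers over all sets were 6 of 42, 4 of 29 and 0 of 38 in order of age. The P1 cells were the shallowest, and a gene at 0 in them may have been missed. None of 17 further connexin genes reached a mean of 10 CPM at any time point. The nearest was Gja3, which was found in 5 P1 cells (mean 9.60 CPM) and had no count before.

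**Figure D3:**
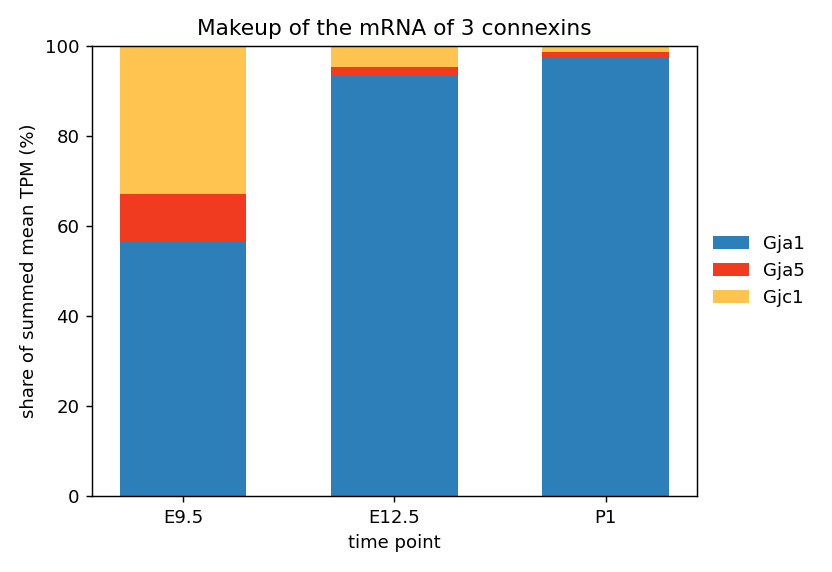
Share of Gja1, Gja5 and Gjc1 in the sum of their mean TPM at each time point (percent, no replicates). Gja1 takes 56.4%, 93.3% and 97.5%, and Gjc1 takes 32.9%, 4.77% and 1.30%.

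Cdh2, which encodes N-cadherin, was found in 41 of 42, 28 of 29 and 38 of 41 cells (97.6%, 96.6% and 92.7%). At equal depth these shares became 81.0%, 86.2% and 89.5%, so their order turned. Their exact intervals overlapped (65.9 to 91.4%, 68.3 to 96.1% and 75.2 to 97.1%). Within set C alone the shares at equal depth were 92.9%, 90% and 89.5%, so the rise with age was not present there. Set N530 was at 75% at E9.5. Its mean was 90.4 ± 109, 172 ± 224 and 153 ± 152 CPM (SD over cells) in order of age, with medians of 55.7, 86.8 and 106 CPM. The highest cells had 536, 1063 and 576 CPM, and the ranges overlapped throughout. Over all cells no change of Cdh2 reached 2-fold, although single pairs of sets passed it in each comparison. The P1 to E12.5 log2 ratio was -0.17 (-0.55 to 1.52 over pairs of sets). The P1 to E9.5 log2 ratio was 0.76, and it was positive in both pairs of sets (0.25 to 1.11). That of E12.5 to E9.5 was 0.93 with pairs of sets on both sides of 0 (-1.27 to 1.66), set C having 225 CPM and set N523 53.5 CPM at E12.5. Of the other cadherins listed, Cdh13 (T-cadherin), which is held by a lipid anchor and lacks the tail that binds catenins, was found in 10 of 42, 10 of 29 and 31 of 41 cells, with means of 10.2, 39.5 and 141 CPM. Its ratio of P1 to E9.5 was 13.8-fold (log2 ratio 3.79, 3.71 to 3.83 over pairs of sets). Cdh11 was found in 12 of 42, 5 of 29 and 3 of 41 cells, with means of 17.4, 32.1 and 21.2 CPM. Its P1 to E9.5 log2 ratio was 0.29 (-1.25 to 4.82), and a single cell held 96.6% of the P1 sum. Cdh1 was at 0 in all cells, and Cdh5 (VE-cadherin) was found in 1 cell at each time point.

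Dsp encodes desmoplakin, the link from the desmosome to intermediate filaments. It was also found in most cells (41 of 42, 27 of 29 and 40 of 41). At equal depth the shares were 92.9%, 79.3% and 97.4%, with 4 of 8 cells in set N523 at E12.5. The mean was 595 ± 644, 316 ± 297 and 751 ± 588 CPM in order of age (SD over cells). The median cells were at 362, 309 and 720 CPM, and the highest at 3028, 1116 and 2388 CPM. The single P1 cell without Dsp was the cell with endothelial markers. Dsp was 2.38-fold higher at P1 than at E12.5 (log2 ratio 1.25, 1.18 to 1.88 over pairs of sets). Between P1 and E9.5 the log2 ratio was 0.34 (0.04 to 1.23), with set N530 at 733 CPM and set C at 319 CPM. Ttn, which encodes titin, followed Dsp most closely among the 2798 genes. The centred r was 0.46 over 112 cells and lay between 0.32 and 0.75 in the 5 sets.

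Pkp2, which encodes plakophilin-2, had means of 185 ± 350, 55.2 ± 86.6 and 112 ± 181 CPM in order of age (SD over cells). It was found in 32 of 42, 17 of 29 and 25 of 41 cells. The E9.5 value came almost wholly from set N530, in which Pkp2 was found in 26 of 28 cells at a mean of 263 CPM, as against 6 of 14 cells and 27.8 CPM in set C. The ratio of P1 to E9.5 was therefore opposite in the sets, with log2 ratios of 2.01 for set C and -1.23 for set N530. Pkp2 was 2.03-fold higher at P1 than at E12.5 (log2 ratio 1.02, 1.12 to 1.82 over pairs of sets), which was just past 2-fold. The single E12-5b cell, at 317 CPM, was the highest at E12.5 and enters no pair of sets.

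Jup encodes plakoglobin, the catenin that desmosomes and adherens junctions share. It was found in 38 of 42, 22 of 29 and 24 of 41 cells in order of age (90.5%, 75.9% and 58.5%). At equal depth these shares became 76.2%, 55.2% and 55.3%, with exact intervals of 60.6 to 87.9%, 35.7 to 73.6% and 38.3 to 71.4%. The mean was 77.7 ± 122 CPM, 51.3 ± 91.9 CPM and 41 ± 83 CPM (SD over cells), and the median cells were at 45.5, 18.2 and 7.87 CPM. The P1 to E9.5 log2 ratio was -0.92 (-1.29 to -0.70 over pairs of sets), lower in both pairs. The ratio was short of 2-fold over all cells and past it within set C (-1.29) and with mean TPM (-1.29).

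Dsg2 and Dsc2 are the desmosomal cadherins. Dsg2 (desmoglein-2) was found in 30 of 42, 17 of 29 and 28 of 41 cells, with means of 86.6 ± 288 CPM, 71.2 ± 190 CPM and 69 ± 118 CPM (SD over cells) and medians of 12.4, 1.02 and 18.4 CPM. At E9.5 a single cell at 1844 CPM held 50.7% of the sum, and without it the mean was 43.7 CPM. Dsc2 (desmocollin-2) was found in 20 of 42, 10 of 29 and 17 of 41 cells, with means of 44.2 ± 126 CPM, 79.0 ± 385 CPM and 69.4 ± 189 CPM (SD over cells). The shares of cells with Dsc2 were 47.6%, 34.5% and 41.5%, but 26.2%, 31.0% and 39.5% at equal depth, so their order turned. At E9.5 Dsc2 was found in 2 of 14 cells of set C (2.59 CPM) and 18 of 28 of set N530 (65.0 CPM), and the P1 to E9.5 log2 ratio was 4.75 and 0.09 in these sets. The median cell was at 0 at each time point. At E12.5 a single N523 cell at 2080 CPM held 90.8% of the sum, and without it the mean was 7.51 CPM. The means of Dsc2 therefore give no order of the time points. Dsg2 and Dsc2 were found together in 15 of 42, 6 of 29 and 14 of 41 cells. At equal depth it was 10 of 42, 4 of 29 and 13 of 38 cells, so E9.5 no longer had the highest share. Of the other desmosomal genes, Pkp4 alone reached 10 CPM, with means of 82.0, 128 and 148 CPM.

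**Figure D4:**
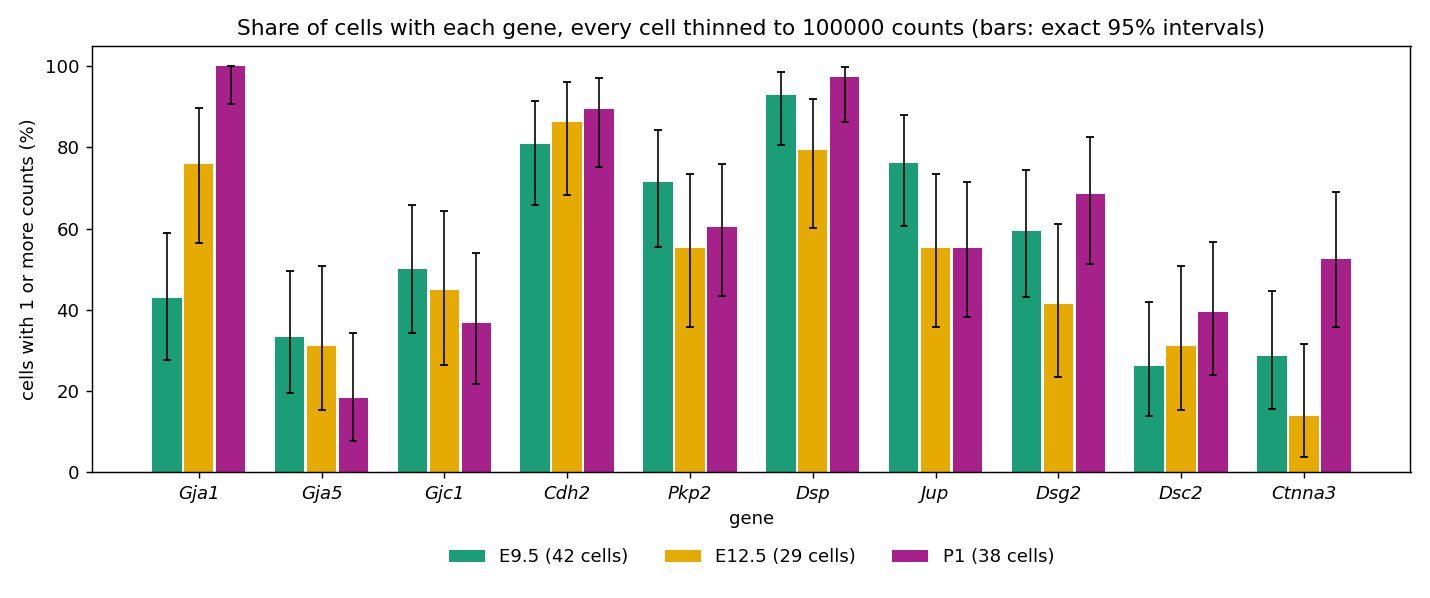
Percent of cells with 1 or more counts of each gene after every cell was thinned to 100000 counts (42, 29 and 38 cells); error bars are exact 95% intervals for the draw of cells from 1 sample and do not cover the spread between hearts. Gja1 goes from 42.9% to 100%, Gja5 from 33.3% to 18.4%, and Ctnna3 is at 13.8% at E12.5. Within set C alone Gja5 was at 7.14%, 15% and 18.4%, so its lower share at P1 was not present there.

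Ctnna3, which encodes alpha-T-catenin, a catenin of the mixed junctions in which desmosomal and adherens proteins meet, was lowest at E12.5. It was found in 17 of 42, 5 of 29 and 23 of 41 cells in order of age. The mean was 43.7 ± 154 CPM, 3.10 ± 10.9 CPM and 63.0 ± 104 CPM (SD over cells). The highest E12.5 cell had 53.6 CPM, whereas the highest E9.5 cell had 980.0 CPM and the highest P1 cell 398 CPM. Thinned to 100000 counts the shares were 28.6% (15.7 to 44.6%), 13.8% (3.89 to 31.7%) and 52.6% (35.8 to 69%). The mean was 14.1-fold lower at E12.5 than at E9.5 (log2 ratio -3.81, -6.06 to -2.26 over 4 pairs of sets) and 20.3-fold higher at P1 than at E12.5 (log2 ratio 4.34, 3.92 to 6.24). P1 and E9.5 differed by a log2 ratio of 0.53 (0.18 to 1.66). A single E9.5 cell held 53.4% of the E9.5 sum, and without it that mean was 20.9 CPM. Likewise 1 E12.5 cell held 59.6% of the E12.5 sum, and without it that mean was 1.30 CPM. Ctnna1, the alpha-catenin of most tissues, was found in 42 of 42, 27 of 29 and 41 of 41 cells with means of 561, 365 and 774 CPM, and Ctnna2 had no count.

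A member was counted as changed when its mean differed at least 2-fold, reached 10 CPM at the higher time point, and had the same direction in every pair of naming sets. All 10 members reached 10 CPM in each comparison. From E9.5 to E12.5, 1 of 10 was higher (Gja1) and 1 lower (Ctnna3), and over all 9109 genes that reached 10 CPM, 9.16% were higher and 18% lower. From E12.5 to P1, 5 of 10 were higher (Gja1, Gja5, Pkp2, Dsp and Ctnna3) and 0 lower, as against 18.6% higher and 24% lower over 8631 genes. From E9.5 to P1, 2 of 10 were higher (Gja1 and Gja5) and 0 lower, as against 18.4% higher and 35.7% lower over 9136 genes. This last count was 7 of 10 higher and 1 lower (Jup) with set C alone, where 22.3% of 8918 genes were higher and 39.6% lower, and it was 1 higher (Gja1) with summed CPM, mean TPM or the cells with 3 cardiomyocyte markers. The median log2 ratio of the members was -0.46, 0.60 and 0.43 in these comparisons, beside -0.17, -0.37 and -0.64 over all genes. In pairs of sets the median of the members ran from -1.13 to 0.84 between E9.5 and E12.5, that is on both sides of 0, and from 1.15 to 1.80 and 0.07 to 1.45 in the comparisons with P1. Scaling with the trimmed mean of M-values (TMM) would shift every log2 ratio by 0.43, -0.26 and 0.17. Under that scaling 2 members rather than 5 were counted as higher at P1 than at E12.5 (Gja1 and Ctnna3). The log2 ratios of Dsp and Pkp2 were then 0.99 and 0.76, and Gja5 was lower at P1 than in set N523. Shares of all genes were not computed with TMM, summed CPM, mean TPM or the marker filter. The counts under those settings therefore cannot be set beside the shares above.

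**Figure D5:**
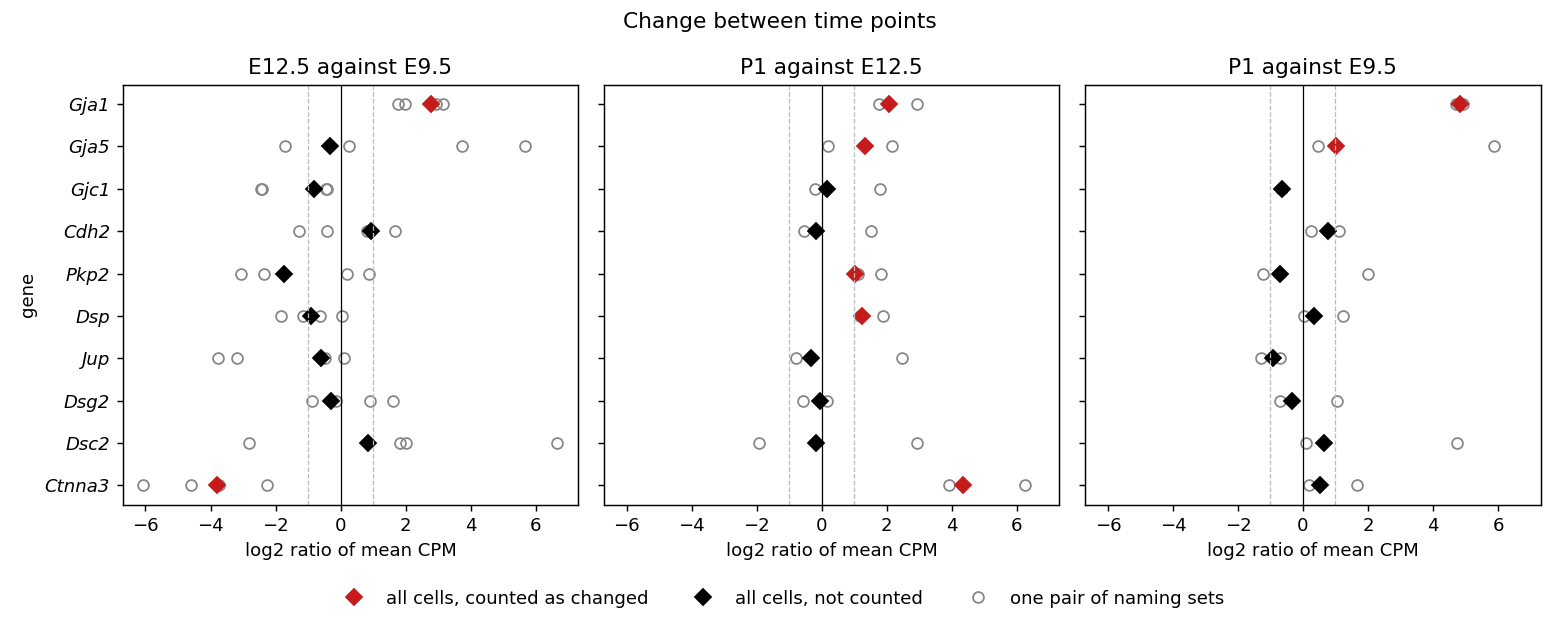
Log2 ratio of mean CPM for each gene in the 3 comparisons, with diamonds for all cells and open circles for pairs of naming sets of 6 or more cells; dashed lines mark 2-fold. Red diamonds are the members counted as changed, of which Gja1 is at 2.78, 2.06 and 4.84. Between E9.5 and E12.5 the circles of Gja5, Cdh2, Pkp2, Dsp, Jup, Dsg2 and Dsc2 spread to both sides of 0.

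Per length, the order of the members differed between time points. At E9.5 Pkp2 (mean 152 TPM), Dsp (143 TPM) and Gja1 (132 TPM) led, and these did not differ beyond the spread over cells (SD 304, 166 and 352 TPM). In set C of E9.5, Pkp2 was at 19.2 TPM and Gja1 at 136 TPM, so the first place of Pkp2 rested on set N530. At E12.5 Gja1 (703 TPM) stood above Cdh2 (68.9 TPM) and Dsp (62.3 TPM), and Ctnna3 (1.39 TPM) was last. At P1 Gja1 (2756 TPM) stood above Dsp (131 TPM), Pkp2 (64.0 TPM) and Cdh2 (54.4 TPM), and Jup (13.5 TPM) was last. Of the summed mean TPM of the 5 desmosomal genes, Dsp took 37.3%, 36.9% and 51.7%, and Pkp2 39.6%, 21.9% and 25.3%. Within set C alone Dsp took 49%, 43.9% and 51.7% and Pkp2 13.3%, 22.9% and 25.3%, so the direction of Pkp2 with age turned. At 100000 counts per cell the median cell carried 6 of the 10 members at each time point, with ranges of 1 to 8, 0 to 8 and 3 to 9. Within time points and sets the members did not follow one another closely. The centred r between members ran from -0.21 (Dsg2 and Ctnna3) to 0.19 (Pkp2 and Dsp) over 112 cells. The genes most like Gja1 were Tsc22d2 (r 0.43) and Pln, which encodes phospholamban, the inhibitor of the calcium pump (r 0.42). Before centring r was 0.09 and 0.81. Within set C at E9.5, N530, set C at E12.5, N523 and P1 it was 0.16, 0.63, 0.58, 0.59 and 0.21 for Tsc22d2 and 0.10, -0.25, 0.72, 0.31 and 0.48 for Pln. The second gene most like Gja5 was Gpx3 (r 0.49), and that most like Dsp was Qk (r 0.41). For the other members the leading genes were Ssh2 and Bbip1 (Gjc1), Psmb5 and 2310061C15Rik (Cdh2), Aplp2 and Pdcd6 (Pkp2), Pgam2 and Map1lc3b (Jup), Lrpprc and Tcea3 (Dsg2), 1110021J02Rik and Ppm1b (Dsc2), and Rnf20 and Itgb1bp2 (Ctnna3), with r from 0.33 to 0.43. Values of this size are the highest of 2798 and are given as a description.

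Genes that bind to these junctions were taken from 3 lists of 19 genes in all: catenins and actin linkers, muscle proteins of the disc, and membrane proteins. At P1 against E9.5, 6 of 19 were higher and 6 lower by the same rule, beside the 18.4% and 35.7% of all genes. Of the 6 muscle disc proteins, 4 were higher and 0 lower. Nrap, which anchors terminal actin filaments, had the largest ratio (mean 0.331 CPM at E9.5 and 119 CPM at P1, log2 ratio 8.49). It was found in 5 of 42 E9.5 cells, and without the highest of them the E9.5 mean was 0.105 CPM. Xirp2, an actin-binding protein of the disc, went from 0.631 to 29.0 CPM (log2 ratio 5.52), but it was found in 1 of 42 E9.5 cells and 4 of 41 P1 cells, and without the highest P1 cell that mean was 18.8 CPM. Myzap, a protein of the disc membrane, went from 39.1 to 292 CPM (log2 ratio 2.90), with 23.5 CPM at E9.5 without the highest cell. Of the 8 catenins and actin linkers, 1 was higher (Lmo7) and 4 were lower. The largest decreases were those of Afdn, or afadin, which is listed as Mllt4, from 363 to 24.6 CPM (log2 ratio -3.89), and of Tjp1, or ZO-1, which binds connexin 43, from 142 to 32.5 CPM (log2 ratio -2.13). Of the 5 membrane proteins, 1 was higher (Perp) and 2 lower. Tmem43, a protein of the nuclear membrane, went from 21.9 to 5.17 CPM (log2 ratio -2.08), in 5 of 42 and 2 of 41 cells, and without the highest E9.5 cell that mean was 12.1 CPM. From E9.5 to E12.5 the lists had 2 higher and 5 lower of 18 that reached 10 CPM, beside 9.16% and 18% of all genes. From E12.5 to P1 they had 7 higher and 2 lower of 18, beside 18.6% and 24%.

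Genes listed as markers of other lineages also differed in level. The summed CPM of 4 smooth muscle markers (Myh11, Cnn1, Tagln and Acta2) had medians of 4373, 2324 and 1110 in order of age, with highest cells at 22112, 10003 and 5811. In 26 of 42, 17 of 29 and 1 of 41 cells, 3 or more of the 4 reached 10 CPM. All 4 were found at E9.5, but Myh11 had a mean of 0.340 CPM there and was at 0 at E12.5 and P1. Of 5 epithelial markers, the keratins Krt8, Krt18 and Krt19 were found at E9.5 (median sum 46.8 CPM, highest 1530 CPM), Epcam and Cdh1 were at 0 in all cells, and the median was 0 at E12.5 and P1. The summed CPM of 5 fibroblast markers reached 4007, 529 and 112 in the highest cells, and 1 cell, of E12.5, had 3 or more of them at 10 CPM. Among these, Pdgfra had means of 108.5, 22.2 and 0 CPM. The sum of 5 epicardial markers reached 2695, 510 and 372 CPM in the highest cells, with Wt1 at means of 83.4, 18.4 and 0 CPM, Tbx18 found at each time point, and Upk3b and Msln at 0 in all cells. The median of both sums was below 1 CPM at each time point. The part of these cells and genes in the values of the disc genes was not tested, apart from the exclusions given above.

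Each member was placed on GRCm38 with the GENCODE vM21 annotation. Gja1 lies on chromosome 10 (56377330 to 56402513, + strand), Gja5 on chromosome 3 (96904693 to 97077416, + strand), Gjc1 on chromosome 11 (102799579 to 102819700, - strand) and Ctnna3 on chromosome 10 (63430098 to 65003667, + strand). Dsp lies on chromosome 13 (38151294 to 38198577, + strand), Pkp2 on chromosome 16 (16213318 to 16272712, + strand) and Jup on chromosome 11 (100368958 to 100397763, - strand). Cdh2, Dsg2 and Dsc2 are all on chromosome 18. The exons of 7 members overlap no other annotated gene. In Gja5, 2.87% of exon bases overlap exons of Gpr89 on the opposite strand, in Dsp 5.17% those of Gm10129 and in Dsg2 3.99% those of the antisense gene Gm16090, and whether the counting used strand was not given in the sources used here.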

How the data were processed

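Single αMHC-GFP+ cells were captured on Fluidigm C1 chips and amplified with SMART-Seq V4. The authors aligned the reads with OLego and deposited the raw counts from featureCounts, 1 row for each gene symbol (builds mm10 and GRCm38 per the submitters' processing notes). The authors also deposited TPM computed from these counts, on a linear scale. Gene lengths, annotation release and strand setting were not given in the sources used here. Of 123 cells, 112 with 2000 or more genes were kept. 11 P1 cells were left out.

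Cell counts were divided by the cell total and multiplied by 1000000 (CPM), and the level of a gene was the mean over cells. A total of 0 was read as 3 counts of the summed total. Shares carry exact Clopper-Pearson intervals and summed CPM exact Poisson intervals (level 95%, scipy 1.17.1). In the median cell 1 count is 0.404, 2.03 and 6.71 CPM in order of age. Cells were thinned to 100000 counts without replacement (numpy 2.4.6, seed 1). TMM factors were computed on the summed counts with edgeR 4.0.16, without a test. Named genes are all members, the 3 largest and the 3 smallest P1 to E9.5 ratios of the partner lists, the other family members at 10 CPM or more, and the genes most alike to a member. Some marker genes and cells outside this rule (Lmo7, Perp, Gja3, Ctnna1, Ctnna2, Cdh1 and Cdh5) were named after their values were seen. The members and lists were chosen with earlier results of these data known. Alternatives were other summaries, depths, scalings, cell filters, folds and naming sets.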

Additional observations from a re-analysis of the deposited data

How the results depend on the processing

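The log2 ratios of the members counted as changed kept their sign under each of 14 alternatives, which do not include the crossed pairs of naming sets (Gja1, E12.5 to E9.5, was 1.76 in the lowest of these). They ranged from 4.38 to 6.09 (Gja1, P1 to E9.5), 1.97 to 4.29 (Gja1, E12.5 to E9.5), 1.73 to 2.94 (Gja1, P1 to E12.5), 0.45 to 5.88 and 0.10 to 2.19 (Gja5, P1 to E9.5 and to E12.5), 0.76 to 1.82 (Pkp2, P1 to E12.5), 0.99 to 1.88 (Dsp, P1 to E12.5), -6.06 to -2.26 (Ctnna3, E12.5 to E9.5) and 3.83 to 6.24 (Ctnna3, P1 to E12.5).

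Counts of members depended more on the settings, and the cause was not tested unless the setting itself is the cause. Shares of all genes were computed for the main rule and, for P1 against E9.5, with set C alone. The other counts below have no such share, so whether they are unusual cannot be read from them. For E12.5 against E9.5, the members at least 2-fold higher numbered 1, and 2 with set C alone or with sets N530 and N523. Those lower numbered 1, and 3 with summed CPM, deposited TPM or thinning, 5 with sets N530 and N523, and 2 without titles ending in "no", with cells that had 3 cardiomyocyte markers, without the highest cell of each member, at 1.5-fold, and where naming sets were not required. For P1 against E12.5, those higher numbered 5, and 2 with TMM factors or at 3-fold, 6 with set C alone and 7 with set N523 (Gja1, Gjc1, Cdh2, Pkp2, Dsp, Jup and Ctnna3), and those lower numbered 0, and 1 with sets N530 and N523. For P1 against E9.5, those higher numbered 2, and 1 (Gja1) with summed CPM, deposited TPM, cells with 3 cardiomyocyte markers or at 3-fold, 4 with a minimum of 3000 genes or at 1.5-fold, and 7 with set C alone. Those lower numbered 0, and 2 with deposited TPM (Gjc1 and Jup) or at 1.5-fold, and 1 with thinning (Gjc1, where 3 shallow P1 cells were also left out), with set C alone (Jup) or with set N530 (Pkp2). The median log2 ratio of the members, -0.46 between E9.5 and E12.5, changed sign to 0.84 with set C alone. That of P1 to E12.5 was 1.37 with summed CPM, 1.15 with set C and 1.80 with set N523, and that of P1 to E9.5 was 1.45 with set C. 3 alternatives were chosen after seeing the data. Leaving out the 2 cells with endothelial markers, or the 3 P1 cells under 100000 counts without thinning, moved no count of members by over 1.5 times. Set C without the cells with endothelial markers gave 2 members higher at E12.5 than at E9.5, 6 higher and 1 lower (Jup) at P1 than at E9.5, and median log2 ratios of 0.74 (E12.5 to E9.5) and 1.19 (P1 to E12.5).

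The median number of members per cell stayed within the spread over cells in all 24 recomputations. No paired analysis was possible because each time point is 1 sample and the cells carry no shared replicate numbers. P1 cells were the shallowest, so genes of low level can be missed in them. No animals, litters or chips were named, so the spread between hearts is unknown, and in the comparisons with P1 age cannot be told apart from digestion.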
